A study of Mus musculus with 192 samples.

Results

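Erythroid membrane and regulator genes were followed in 9 tissues of WT and Nrf2-KO mice that had lived on the ground or on the International Space Station. The members were 35 genes chosen by symbol from a list, with earlier results of these data known. Of these, 34 had values among the 54752 genes of the table. They were divided by textbook role into 7 regulators and receptors of progenitors (Klf1, Gata1, Tal1, Nfe2, Gfi1b, Epor and Tfrc), 16 late membrane and membrane skeleton genes (Slc4a1, Ermap, Sptb, Ank1, Epb42, Epb41, Rhag, Rhd, Kel, Add2, Aqp1, Tmod1, Dmtn, Cldn13, Tspo2 and Mfsd2b), 7 maturation and metabolic genes (Trim10, Trim58, Hemgn, Car1, Bpgm, Slc25a37 and Slc25a38) and 4 globin genes (Hba-a1, Hba-a2, Hbb-bs and Hbb-bt). The other listed member was not analysed here.

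All mice were males on the C57BL/6J background, labelled as 12 weeks old. For flight mice the paper gives this age before transport to the station, so at dissection they were older by the month-long stay. Nrf2-KO mice carried the Nfe2l2 tm1Ymk allele, a germline deletion present in all cells. Ground-control WT (GC_WT), flight WT (FL_WT) and ground-control Nrf2-KO (GC_KO) groups held 6 mice each, and the flight Nrf2-KO group (FL_KO) held 5 after flight mouse 04, which had an intestinal hemorrhage, was left out. In mandibular bone (MdB) there were 3 mice per group and 2 in FL_KO, and in kidney (Kid) 3 per group. The other tissues were spleen (Spl), temporal bone (TpB), liver (Liv), epididymal white fat (eWAT), interscapular brown fat (iBAT), thymus (Thy) and cerebrum (Cbr). Flight mice were dissected about 2 days after return, at a site in the United States and after exsanguination, whereas ground mice, for which exsanguination is not stated, were dissected months later in Japan, so that flight, site, date and any difference in the mode of death cannot be told apart. Nothing in the labels says that mice of a group were littermates or not, and p-values measure the spread between these mice.

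The 192 libraries held 8007487 to 10564672 counts in Thy, which was the only tissue made from ribosome-depleted total RNA, and 12954924 to 16308147 counts in the others, which were made from poly(A) RNA. Nfe2l2, the targeted gene, was lower in every Nrf2-KO mouse than in any WT mouse in all 9 tissues, at 28.2% of the WT mean in Cbr and 81.9% in Spl. Levels are given in TPM, transcripts scaled to the length of each gene and to a fixed total per library. A gene was called changed when its adjusted p from edgeR's quasi-likelihood test was under 0.05 over all genes tested in the tissue.

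Red blood cells arise from erythroid progenitors, which carry the erythropoietin receptor and are driven by transcription factors such as Gata1, Tal1 and Klf1. As the cells mature, they take up iron through the transferrin receptor, fill with hemoglobin, and build a membrane in which spectrin and ankyrin tie the anion exchanger and the Rh complex to an actin skeleton. They then lose their nucleus and enter the blood as reticulocytes. In mice, the spleen is a site of red cell production beside bone marrow and can expand it under demand, and it is also where old red cells are taken up by red pulp macrophages. RNA of late erythroid genes in a tissue can therefore come from developing cells or from reticulocytes in blood. In bulk RNA, fewer cells of a type and less RNA per cell cannot be told apart.

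To show the letters before some of the genes that the results turn on, the 250 bases upstream of the RefSeq start site of 6 of them are shown (GRCm38.p6, 5′ to 3′ on the gene's strand): Klf1 at chr8:84901732-84901981 (+), Epor at chr9:21963577-21963826 (−), Epb42 at chr2:121036878-121037127 (−), Kel at chr6:41704326-41704575 (−), Hemgn at chr4:46404184-46404433 (−) and Trim10 at chr17:36869324-36869573 (+). They were picked after their values had been seen, as 2 regulators, 2 late membrane genes and 2 maturation genes, and capitals mark GATA letters, and in Epor also CACCC letters. All 6 hold GATA letters, whereas some members called in Spl below, such as Bpgm, Sptb, Tspo2, Tmod1 and Trim58, had neither kind.
Klf1: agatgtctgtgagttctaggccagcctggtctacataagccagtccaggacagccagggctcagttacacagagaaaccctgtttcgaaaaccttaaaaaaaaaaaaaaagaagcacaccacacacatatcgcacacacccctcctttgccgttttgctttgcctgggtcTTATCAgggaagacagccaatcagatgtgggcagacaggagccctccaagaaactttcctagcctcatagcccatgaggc
Epor: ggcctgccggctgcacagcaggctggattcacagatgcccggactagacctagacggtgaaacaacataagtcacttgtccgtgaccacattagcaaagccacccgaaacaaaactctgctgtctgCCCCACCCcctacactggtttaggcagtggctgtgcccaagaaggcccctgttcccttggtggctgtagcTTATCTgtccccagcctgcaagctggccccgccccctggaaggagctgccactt
Epb42: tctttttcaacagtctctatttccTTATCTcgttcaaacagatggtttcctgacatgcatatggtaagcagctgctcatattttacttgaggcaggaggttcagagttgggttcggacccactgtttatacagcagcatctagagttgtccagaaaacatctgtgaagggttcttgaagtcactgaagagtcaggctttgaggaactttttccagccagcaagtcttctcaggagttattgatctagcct
Kel: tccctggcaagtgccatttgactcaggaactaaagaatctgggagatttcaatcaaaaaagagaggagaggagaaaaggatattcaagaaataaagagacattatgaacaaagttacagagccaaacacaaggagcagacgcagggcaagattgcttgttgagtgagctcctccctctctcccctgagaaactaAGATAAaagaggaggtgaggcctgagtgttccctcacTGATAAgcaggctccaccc
Hemgn: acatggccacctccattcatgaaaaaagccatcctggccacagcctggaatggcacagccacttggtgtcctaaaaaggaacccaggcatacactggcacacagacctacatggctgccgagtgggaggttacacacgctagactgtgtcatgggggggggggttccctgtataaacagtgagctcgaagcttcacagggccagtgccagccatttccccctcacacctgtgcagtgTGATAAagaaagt
Trim10: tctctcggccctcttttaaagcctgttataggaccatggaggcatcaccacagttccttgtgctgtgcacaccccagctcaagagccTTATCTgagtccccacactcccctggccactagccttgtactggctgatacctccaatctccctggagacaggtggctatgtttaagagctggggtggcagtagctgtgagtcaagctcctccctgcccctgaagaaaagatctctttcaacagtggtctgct
Of the 34 members, 27 had such a sequence, and Slc4a1, Ank1, Nfe2, Car1, Dmtn, Cldn13 and Slc25a37 had none. The letters AGATAA or TGATAA, which GATA factors are known to bind, stood on either strand in 14 of the 27 members (51.9%) and in 16.5% of 32536 promoters of the same length. CCACACCC, CCGCACCC or CCCCACCC, letters of the CACCC type that Klf1 is known to bind, stood in 5 members (18.5%) and in 13.2% of promoters. Both kinds were found in Hbb-bs and Epor, that is in 7.41% of the members and 1.46% of promoters. E-box letters CAGCTG or CAGATG, the kind bound by Tal1 with its partners, stood in 4 members (14.8%) and in 25.5% of promoters. A few members have more than 1 promoter in the table and so had more chances of a match. These matches describe the letters only, and RefSeq start sites can differ from those of the annotation used for counting.

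In GC_WT mice, 30 of the 34 members had their highest mean TPM in TpB, which contains marrow, and Spl held the second highest mean for 26. Slc4a1, the anion exchanger of the red cell membrane, averaged 245 TPM in TpB, 25.2 TPM in Spl and 9.92 TPM in Kid, and at most 0.68 TPM in the other tissues. Klf1, the factor that switches on adult β-globin and many membrane genes, averaged 64.1 TPM in TpB and 5.64 TPM in Spl, and no TpB mouse overlapped any Spl mouse. Hbb-bs, a β-globin gene, reached 19164 TPM in TpB, 5265 TPM in Spl and 24.5 TPM in Thy.

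A few members were not mainly erythroid in this set of tissues. Add2, a β-adducin that caps actin of the membrane skeleton, averaged 94.9 TPM in Cbr and 37.0 TPM in TpB, and Dmtn, an actin-bundling protein, 304 TPM in Cbr and 106 TPM in TpB. Sptb, β-spectrin, was second highest in Cbr at 51.9 TPM against 88.9 TPM in TpB. Tmod1, an actin cap, and Ank1, ankyrin, also stood at 35.6 to 41.0 and 21.6 to 29.6 TPM in Cbr of FL_KO mice. Their means over the Spl mice of all groups were 1.14 and 3.35 TPM. Aqp1, a water channel, averaged 419 TPM in Kid and 414 TPM in eWAT, which overlapped between mice. Tfrc, the transferrin receptor, averaged 86.1 TPM in MdB and 52.5 TPM in TpB, again with overlap.

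**Figure D1:**
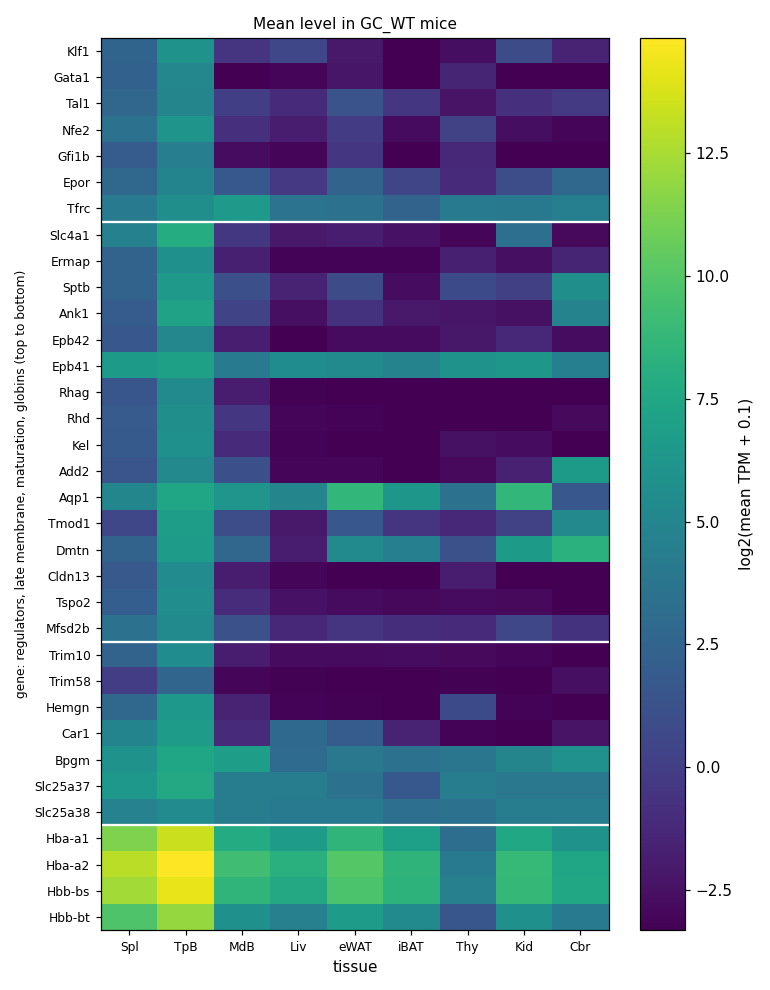
Mean TPM of the 34 members (rows, by role) in the 9 tissues (columns) of GC_WT mice, coloured as log2(mean TPM + 0.1). The TpB column is brightest for 30 members, while Add2 and Dmtn peak in Cbr, Aqp1 in Kid and Tfrc in MdB.

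In the spleen of WT mice, 15 of the 34 members fell in flight and none rose, whereas 1.11% of the 16170 genes tested were called lower. By role, 0 of 7 regulators, 8 of 16 late membrane genes, 3 of 7 maturation genes and 4 of 4 globins fell. The median log2 fold change of flight over ground was −0.49 over the regulators, −1.83 over the late membrane genes, −1.23 over the maturation genes and −2.23 over the globins, against 0.00 over all genes tested. Values were below 0 for 33 members and unadjusted p was under 0.05 for 28.

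In Nrf2-KO mice, 22 members fell in flight and none rose, with 0.513% of all genes called lower. The counts were 2 of 7 regulators, 12 of 16 late membrane genes, 4 of 7 maturation genes and 4 of 4 globins. The medians were −0.96, −2.75, −1.67 and −2.77 on the log2 scale in the same order, against 0.01 over all genes. Every member was below 0, and unadjusted p was under 0.05 for 33 of them.

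Of the genes given in detail below, Slc4a1 (ENSMUSG00000006574.15) lies at chr11:102348824-102366203 (−), Klf1 (ENSMUSG00000054191.8) at chr8:84901928-84905291 (+), Epor (ENSMUSG00000006235.6) at chr9:21958897-21963506 (−) and Hbb-bs (ENSMUSG00000052305.6) at chr7:103826534-103828096 (−) in mm10. Values are gene-level sums over transcripts, so exons are not resolved.

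The counts moved with single mice. They ranged from 8 to 16 in WT and from 11 to 31 in Nrf2-KO when 1 mouse was left out. Leaving out GC_WT mouse 08, FL_WT mouse 05 or FL_WT mouse 08 left 8 members called in WT, and 9 remained called without FL_WT 03, 06 or 07 or GC_WT 03. In Nrf2-KO the count was 11 without FL_KO 12, 13 without FL_KO 02 or GC_KO 09, and 31 without GC_KO 01. Slc4a1, Trim10 and the 4 globins were called in both genotypes in every one of these fits and under every other processing tried, and Epb42 and Klf1 were so in Nrf2-KO. With limma on log2(TPM + 1) without a filter the counts were 6 and 9, with DESeq2 20 and 31, and with the 2 groups alone in the fit 8 in Nrf2-KO. Flight mouse 04, which was left out, lay above the other FL_KO mice in Spl for 13 members, below them for 3 and among them for 18.

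**Figure D2:**
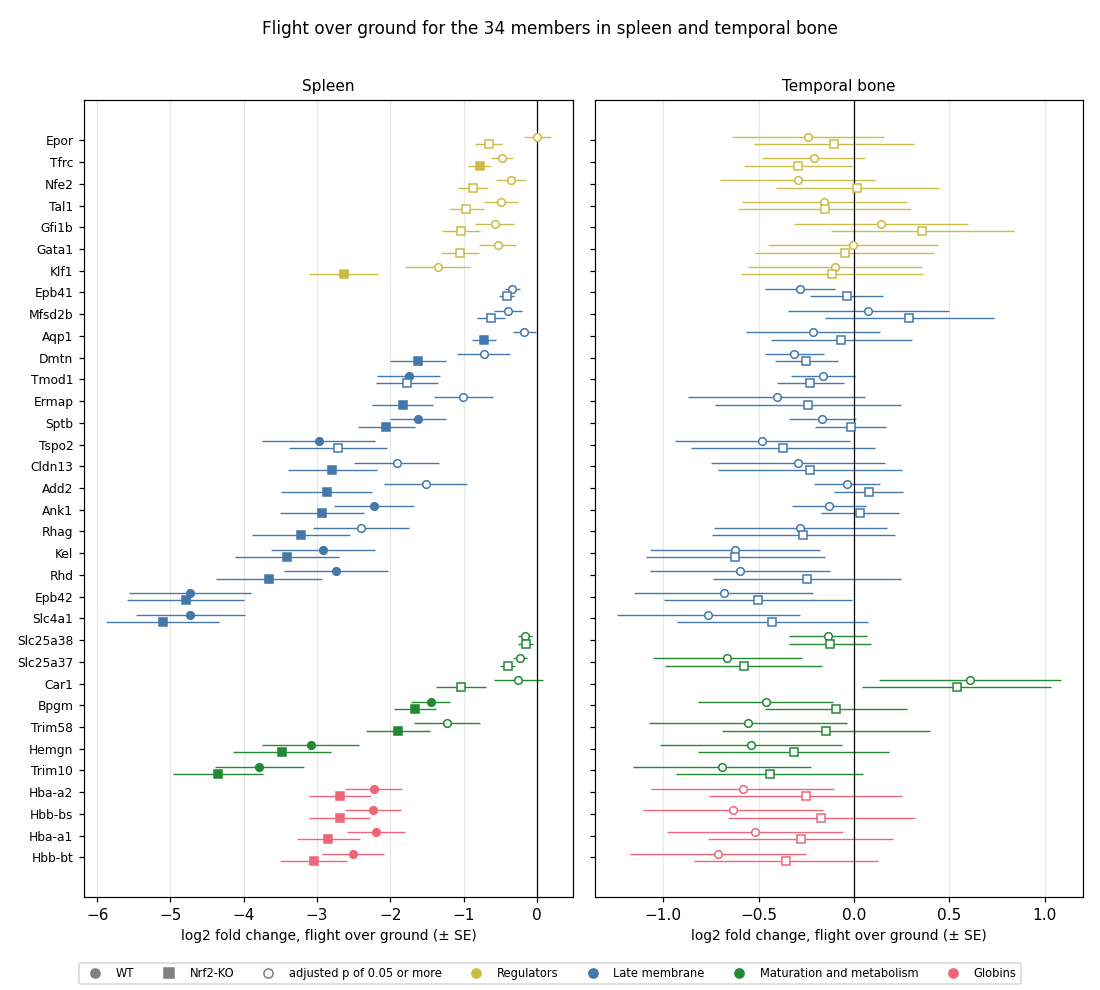
Log2 fold change of flight over ground with its SE for each member in Spl (left) and TpB (right), in WT (circles) and Nrf2-KO mice (squares), coloured by role and filled where the adjusted p was under 0.05. The horizontal scales differ, with Spl values reaching −5.10 for Slc4a1 and the TpB values staying between −0.76 and 0.61. No TpB symbol is filled.

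By median, regulators were lower by the least in Spl, and Klf1 was lower by the most among them. Klf1 stood at 2.15, 3.95 and 14.7 TPM (lowest, median and highest) in GC_WT and at 1.34, 2.19 and 3.23 TPM in FL_WT. In GC_KO the same values were 4.68, 11.1 and 19.5 TPM, and the 5 FL_KO mice had 1.61, 2.26, 2.20, 1.92 and 1.04 TPM. Every FL_KO mouse was below every GC_KO mouse, while FL_WT and GC_WT overlapped. The log2 fold change was −2.64 (SE 0.47, adjusted p = 0.00668) in Nrf2-KO and −1.36 (SE 0.44, adjusted p = 0.105) in WT, and the difference between both was −1.28 (SE 0.65, adjusted p = 0.999).

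Tfrc, which brings iron into the cells, had 13.2, 15.8 and 24.0 TPM in GC_WT and 9.64, 12.5 and 15.0 TPM in FL_WT. GC_KO mice had 13.2, 21.9 and 27.6 TPM, and the FL_KO mice 11.6, 13.4, 13.9, 10.2 and 10.1 TPM. Flight and ground overlapped in both genotypes. Tfrc fell by 0.78 on the log2 scale in Nrf2-KO (SE 0.16, adjusted p = 0.0166), and the value in WT was −0.47 (SE 0.15, adjusted p = 0.0905).

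Epor, the erythropoietin receptor, was the only member that was not below 0 in WT. Its values were 5.49, 6.59 and 10.3 TPM in GC_WT and 5.33, 7.03 and 8.87 TPM in FL_WT, which covered much the same range. The log2 fold change was 0.00 (SE 0.18, adjusted p = 0.995), and an exact two-sided permutation test of log2(TPM + 0.1) gave p = 0.868. In GC_KO Epor had 6.73, 10.7 and 13.5 TPM and in the FL_KO mice 7.16, 5.62, 7.98, 4.89 and 5.90 TPM. The log2 fold change there was −0.66 (SE 0.19, adjusted p = 0.122).

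Nfe2, a factor of globin and platelet genes, had 6.40, 11.3 and 14.4 TPM in GC_WT, 7.03, 8.07 and 10.5 TPM in FL_WT, 11.8, 17.4 and 25.0 TPM in GC_KO, and 12.5, 10.2, 9.58, 6.88 and 7.90 TPM in the FL_KO mice. Its log2 fold changes of −0.35 and −0.87 (adjusted p = 0.402 and 0.0513) did not pass. Gata1, Tal1 and Gfi1b, core transcription factors of the erythroid line, gave −0.54, −0.49 and −0.57 in WT (adjusted p = 0.290, 0.280 and 0.269) and −1.05, −0.96 and −1.04 in Nrf2-KO (adjusted p = 0.0601, 0.0622 and 0.0648). FL_KO mice were all below GC_KO mice in Gata1 and Gfi1b.

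Late membrane genes held the largest differences. Slc4a1 had 2.86, 19.1 and 66.0 TPM in GC_WT and 0.58, 0.87 and 1.57 TPM in FL_WT. In GC_KO it had 6.36, 37.0 and 93.2 TPM, and in the FL_KO mice 1.65, 0.53, 0.63, 2.92 and 0.70 TPM. Flight and ground did not overlap in either genotype. Slc4a1 was 26.5-fold lower in FL_WT (log2 fold change −4.73, SE 0.74, adjusted p = 0.0024) and 34.4-fold lower in FL_KO (−5.10, SE 0.77, adjusted p = 0.00213). The exact permutation test gave p = 0.00216 in WT, the smallest that 6 against 6 mice allow, and p = 0.00433 in Nrf2-KO.

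Epb42, protein 4.2, which links the anion exchanger to the skeleton, had 0.33, 2.27 and 7.53 TPM in GC_WT and 0.00, 0.12 and 0.30 TPM in FL_WT. GC_KO mice had 0.54, 5.04 and 9.78 TPM and FL_KO mice 0.33, 0.13, 0.10, 0.38 and 0.05 TPM, again with no overlap in either genotype. The reads behind these values were few in flight, at 0 to 6 per FL_WT mouse against 7 to 206 per GC_WT mouse. Epb42 fell by 4.73 (SE 0.84, adjusted p = 0.00467) and 4.79 (SE 0.80, adjusted p = 0.00361) on the log2 scale.

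Blood group and skeleton genes changed by less. Kel, the Kell antigen, had 0.55, 1.86 and 10.2 TPM in GC_WT, 0.11, 0.46 and 0.88 TPM in FL_WT and 1.05, 6.08 and 11.9 TPM in GC_KO, and the FL_KO mice had 0.37, 0.21, 0.76, 1.14 and 0.36 TPM. Its groups overlapped narrowly in both genotypes. Sptb had 1.78, 4.14 and 12.8 TPM in GC_WT and 1.42, 1.70 and 1.82 TPM in FL_WT. In WT, Kel (−2.92), Rhd (−2.74), Tspo2 (−2.98), Ank1 (ankyrin, −2.22), Sptb (−1.62) and Tmod1 (an actin cap, −1.75) fell, with adjusted p from 0.0286 to 0.0432. In Nrf2-KO, Kel (−3.41), Rhd (−3.66), Ank1 (−2.93) and Sptb (−2.06) also fell, as did Rhag (the Rh-associated glycoprotein, −3.22), Cldn13 (−2.79), Add2 (−2.87), Ermap (−1.83), Dmtn (−1.63) and Aqp1 (−0.72), with adjusted p from 0.0112 to 0.0436. Tspo2 and Tmod1 stood at −2.71 and −1.77 there, with adjusted p of 0.0622 and 0.0507. The flight effect was not shown to differ between the genotypes for any member, as given below.

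Epb41 and Aqp1, the late membrane genes with the highest levels in Spl, differed little in WT, while Aqp1 fell in Nrf2-KO as given above. Epb41, protein 4.1, which many cell types express, had 80.5, 93.2 and 104 TPM in GC_WT and 64.7, 75.3 and 83.2 TPM in FL_WT. GC_KO mice had 80.5, 107 and 127 TPM and FL_KO mice 83.2, 80.7, 71.1, 74.0 and 64.8 TPM. Its log2 fold changes were −0.33 and −0.41 (SE 0.10 in both, adjusted p = 0.0686 and 0.0622). Aqp1 had 26.1, 30.3 and 40.8 TPM in GC_WT, 24.1, 28.8 and 30.3 TPM in FL_WT, 27.8, 39.2 and 53.5 TPM in GC_KO, and 26.5, 24.9, 26.6, 20.2 and 19.2 TPM in the FL_KO mice. FL_KO mice were all below GC_KO mice, by a narrow margin. Mfsd2b, the sphingosine-1-phosphate exporter of red cells and platelets, gave −0.39 and −0.63 (adjusted p = 0.293 and 0.153).

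Among maturation genes, Trim10, an E3 ligase of terminal erythroid differentiation, had 0.88, 4.85 and 10.8 TPM in GC_WT and 0.12, 0.30 and 0.70 TPM in FL_WT. In GC_KO the values were 2.13, 10.4 and 17.3 TPM, and in the FL_KO mice 0.54, 0.24, 0.31, 0.99 and 0.23 TPM. Flight and ground were apart in both genotypes, and Trim10 was 13.8-fold lower in FL_WT (adjusted p = 0.00259) and 20.3-fold lower in FL_KO (adjusted p = 0.00213). Hemgn, a nuclear protein of erythroid cells, had 1.49, 4.78 and 19.8 TPM in GC_WT, 0.23, 0.83 and 1.53 TPM in FL_WT, 2.38, 12.4 and 24.3 TPM in GC_KO, and 1.27, 0.86, 1.11, 1.81 and 0.50 TPM in the FL_KO mice, which were all below GC_KO mice. It was 8.50-fold and 11.2-fold lower (adjusted p = 0.0192 and 0.0125).

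Bpgm, which makes the 2,3-bisphosphoglycerate that lowers the oxygen affinity of hemoglobin, had 30.8, 67.2 and 88.5 TPM in GC_WT and 17.2, 23.9 and 28.9 TPM in FL_WT. GC_KO mice had 31.9, 83.8 and 112 TPM and FL_KO mice 21.6, 19.4, 22.1, 28.5 and 23.5 TPM, with no overlap in either genotype. It fell by 1.45 and 1.67 on the log2 scale (adjusted p = 0.00694 and 0.00473). Trim58 fell in Nrf2-KO (−1.90, adjusted p = 0.0434) and stood at −1.23 in WT (adjusted p = 0.151).

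Car1, carbonic anhydrase 1, and the mitochondrial carriers Slc25a37 and Slc25a38 passed in neither genotype. Car1 had 14.0, 26.4 and 64.3 TPM in GC_WT, 14.5, 25.5 and 35.8 TPM in FL_WT, 31.6, 58.3 and 94.8 TPM in GC_KO, and 33.6, 34.4, 34.5, 34.2 and 13.3 TPM in the FL_KO mice. FL_WT lay within the range of GC_WT. Slc25a37, mitoferrin 1, had 67.5, 82.2 and 96.4 TPM in GC_WT, 65.4, 69.5 and 79.9 TPM in FL_WT, 69.7, 90.2 and 108 TPM in GC_KO, and 67.7, 68.2, 64.8, 64.4 and 62.7 TPM in the FL_KO mice.

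The globins fell by similar amounts. Hbb-bs had 2116, 5248 and 7817 TPM in GC_WT and 404, 1212 and 1670 TPM in FL_WT. In GC_KO it had 2468, 7742 and 11738 TPM and in the FL_KO mice 1296, 816, 976, 1181 and 1040 TPM. None of the 4 globins overlapped between flight and ground in either genotype. Hbb-bs was 4.72-fold lower in FL_WT (adjusted p = 0.00364), and on the log2 scale it fell by 2.24 (SE 0.38) in WT and by 2.69 (SE 0.42, adjusted p = 0.00213) in Nrf2-KO.

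Hba-a2 had 3172, 7821 and 12261 TPM in GC_WT, 616, 1825 and 2523 TPM in FL_WT, 3778, 11052 and 17608 TPM in GC_KO, and 2046, 1109, 1384, 1782 and 1549 TPM in the FL_KO mice. Hba-a1 had 1014, 2430 and 3965 TPM in GC_WT, 201, 553 and 906 TPM in FL_WT, 1233, 3592 and 6368 TPM in GC_KO, and 606, 413, 432, 489 and 487 TPM in the FL_KO mice. The fitted changes lay between −2.20 and −2.51 for the 4 globins in WT and between −2.69 and −3.05 in Nrf2-KO. The copies share sequence: 62.0% of the 76-base windows of Hba-a1 transcripts occur in Hba-a2 and 80.8% the other way, with 55.7% and 56.5% for Hbb-bs and Hbb-bt, so the split between copies is uncertain.

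**Figure D3:**
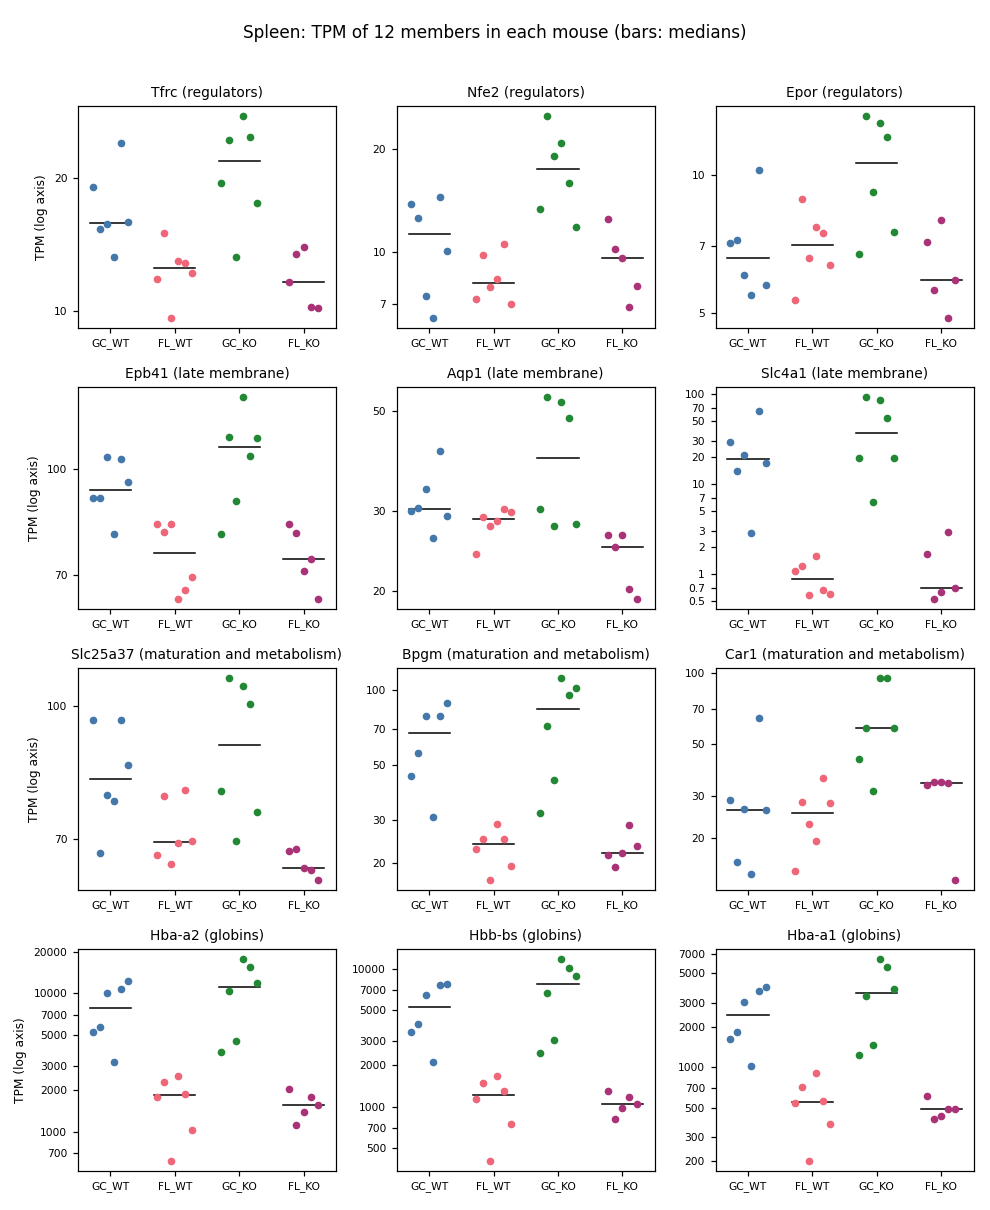
TPM in Spl on log axes for the 3 members of each role with the highest mean TPM, with 1 point per mouse and a bar at the median of each group. Flight and ground points are apart in both genotypes for Slc4a1, Bpgm and the 3 globins shown, and overlap in both for Tfrc, Nfe2, Epor, Epb41 and Car1. For Aqp1 and Slc25a37 they are apart in Nrf2-KO mice but not in WT mice.

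Exact two-sided permutation tests were run for 12 members in both genotypes, 24 tests in all. Of these, 19 gave p under 0.05 without adjustment, and the 5 WT tests of Slc4a1, Bpgm, Hba-a2, Hbb-bs and Hba-a1 gave the smallest p possible. Over all members, 9 had every FL_WT mouse below every GC_WT mouse (0 regulators, 3 late membrane genes, 2 maturation genes and 4 globins), which 0.594% of all genes had. In Nrf2-KO, 19 members did (3 regulators, 7 late membrane genes, 5 maturation genes and 4 globins), against 1.38% of all genes.

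Members varied together from mouse to mouse on the ground. GC_WT mouse 08 had the highest value of its group for 26 of 34 members and mouse 07 the lowest for 31. In GC_KO, mouse 09 was highest for 20 members and mouse 02 for 11, and mouse 04 was lowest for 19. The median SD of log2(TPM + 0.5) over the members was 0.76 in GC_WT and 0.89 in GC_KO, and 0.31 in FL_WT and 0.29 in FL_KO. The globins hardly differed in WT, with 0.77 in both groups (0.767 in GC_WT and 0.772 in FL_WT), and had 0.95 in GC_KO and 0.26 in FL_KO. The added 0.5 narrows the spread of members under 1 TPM.

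Regulators and late membrane genes were also compared within each mouse, as a description without a test. The regulators are not all confined to erythroid cells: Tfrc was highest in MdB, which held little erythroid RNA, and Nfe2 also acts on platelet genes. How much of the regulators' RNA in Spl came from other cells was not tested. The mean log2(TPM + 0.5) of the 16 late membrane genes minus that of the 7 regulators was −0.32 ± 0.38 (SD, n = 6) in GC_WT and −1.17 ± 0.06 (n = 6) in FL_WT. In Nrf2-KO it was −0.35 ± 0.62 (n = 6) in GC_KO and −1.15 ± 0.24 (n = 5) in FL_KO. All FL_WT mice were below all GC_WT mice. In Nrf2-KO the groups overlapped through GC_KO mouse 04, which had −1.48, while the other GC_KO mice were at −0.48 or higher and the FL_KO mice between −1.36 and −0.76. In TpB the differences were 0.89 ± 0.21 in GC_WT, 0.63 ± 0.16 in FL_WT, 0.94 ± 0.12 in GC_KO and 0.84 ± 0.32 in FL_KO, and overlapped between flight and ground.

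**Figure D4:**
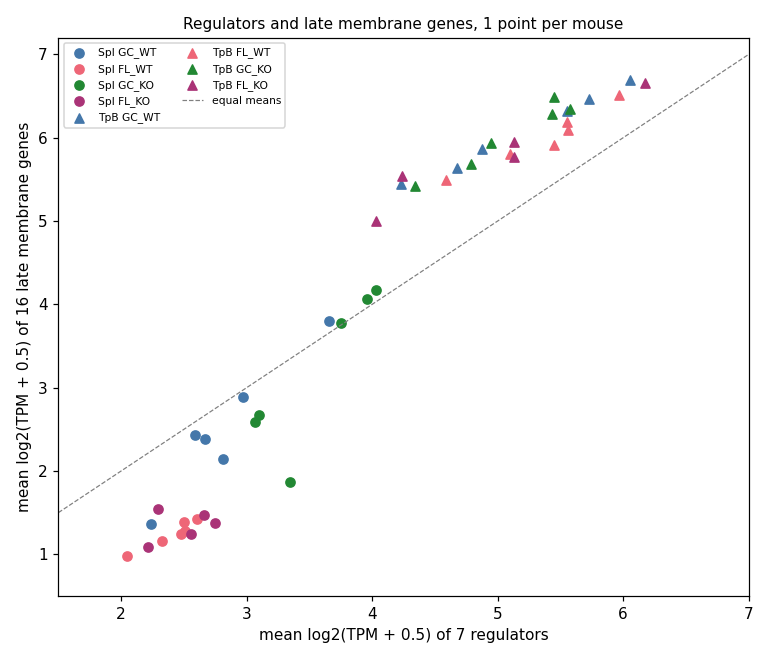
Mean log2(TPM + 0.5) of the 7 regulators (horizontal) and of the 16 late membrane genes (vertical) in each mouse, with circles for Spl, triangles for TpB and colours for the groups. The dashed line marks equal means. Flight mice lie lowest in Spl, beside GC_WT mouse 07, with differences of −1.17 ± 0.06 in FL_WT and −1.15 ± 0.24 in FL_KO, while TpB mice of all groups lie above the line.

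The ratio of Hbb-bs to Slc4a1 restates their unequal falls, since the pair was chosen after the values had been seen. In TPM its median was 297 (117 to 740) in GC_WT and 1139 (697 to 1959) in FL_WT. It was 162 (71.8 to 477) in GC_KO and 1485 (405 to 1550) in FL_KO, so that flight and ground ranges overlapped in both genotypes. In TpB the medians of the 4 groups lay between 75.4 and 87.8.

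Erythroid genes outside the list were read from 29 further genes. In WT, 5 fell, among them Alas2 (the first enzyme of heme synthesis, −2.57), Fech (ferrochelatase, −0.63) and Ube2l6 (−0.77), and none rose. In Nrf2-KO, 7 fell, among them Alas2 (−3.01), Fech (−0.99), Ube2l6 (−1.13), Pklr (pyruvate kinase of red cells, −1.88) and Cited4 (−0.92). Many of the 29 are known from other cells too, and the medians were −0.16 and −0.31 on the log2 scale.

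None of 6 B cell, 6 T cell, 8 red pulp macrophage, 6 endothelial or 10 megakaryocyte genes was called between flight and ground in either genotype, with medians between −0.10 and 0.11 for the first 4 lists and of −0.19 and −0.43 for megakaryocytes. B cell genes summed to 2592 to 3594 TPM in GC_WT and 2806 to 3428 TPM in FL_WT, and red pulp macrophage genes to 1823 to 2427 and 1772 to 2254 TPM. Of the 15 proliferation genes all were below 0 in both genotypes (medians −0.21 and −0.40) and none was called, with unadjusted p under 0.05 for 2 and 11.

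Neutrophil genes (10 of 12 tested) had medians of −1.09 in WT and −0.77 in Nrf2-KO, with none called and unadjusted p under 0.05 for 6 and 2. Their sum ran from 90.5 to 822 TPM in GC_WT, 140 to 278 in FL_WT, 258 to 975 in GC_KO and 213 to 327 in FL_KO. Of 8 genes of hematopoietic progenitors, Kit (−0.27 and −0.31) and Myb (−0.37 and −0.37) fell in both genotypes. Of 4 liver genes, Alb (−1.51) and Apoa1 (−1.90) fell in WT, where the 4 summed to 24.7 to 206 TPM in GC_WT and 20.1 to 38.3 TPM in FL_WT, and none was called in Nrf2-KO. The part of other cells in the erythroid values was not tested.

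On the ground, all 34 members had higher values in GC_KO than in GC_WT, with a median log2 fold change of 0.82, and 2 rose, whereas 0.588% of all genes were called higher. These were Mfsd2b (0.78, SE 0.18, adjusted p = 0.034) and Gfi1b (0.98, SE 0.25, adjusted p = 0.0499). Mfsd2b had 7.94, 11.7 and 13.9 TPM in GC_WT and 12.8, 18.3 and 30.5 TPM in GC_KO, and the groups overlapped. No member was without overlap between GC_KO and GC_WT. The count ranged from 0 to 9 when 1 mouse was left out, with 9 called without GC_WT mouse 08, 4 without GC_KO 12, 3 without GC_KO 01, 1 without GC_WT 05 or 10 or GC_KO 11, and 0 without GC_KO 02, 04 or 09 or GC_WT 03, 06 or 07. This comparison shares its ground mice with both flight comparisons.

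Between FL_KO and FL_WT no member was called, 1 had an unadjusted p under 0.05, and the median was 0.20 on the log2 scale. Of all genes, 1.16% were called in this contrast. The difference of the flight effect between the genotypes was below 0 for 32 of 34 members, with a median of −0.50. Epor (−0.66, SE 0.26) and Aqp1 (−0.55, SE 0.22) had an unadjusted p under 0.05. With edgeR no member was called (adjusted p = 0.999 for each of them) and 0% of all genes were, and DESeq2 called no member either.

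In temporal bone, where the GC_WT mean of every member was above that in Spl, from 1.37-fold for Epb41 to 85.6-fold for Tmod1, no member was called between flight and ground in either genotype by edgeR, DESeq2 or limma, none had an unadjusted p under 0.05 with edgeR, and 0% of all 18184 genes were called in WT and in Nrf2-KO. The medians over the members were −0.29 and −0.20 on the log2 scale. Slc4a1 had 109, 250 and 392 TPM in GC_WT and 83.1, 160 and 266 TPM in FL_WT. GC_KO mice had 124, 236 and 334 TPM and FL_KO mice 91.8, 163, 427, 54.9 and 130 TPM. All groups overlapped, and the log2 fold changes of −0.76 (SE 0.48) and −0.43 (SE 0.50) did not pass. Klf1 had 26.9, 60.2 and 105 TPM in GC_WT and 31.5, 75.0 and 101 TPM in FL_WT, with log2 fold changes of −0.10 and −0.12. These fold changes come from counts, whereas the median TPM of Klf1 in WT was higher in flight.

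Single mice spread widely in TpB. FL_KO mouse 09 was highest for 31 of 34 members and mouse 11 lowest for 27, GC_WT mouse 10 was highest for 25 and mouse 08, which was highest in Spl, lowest for 26. Some skeleton genes spread less over the 5 FL_KO mice. Tmod1 had 91.7 to 135 TPM, Ank1 129 to 170 TPM and Sptb 69.3 to 122 TPM, while Slc4a1 ran from 54.9 to 427 TPM. Tmod1, Ank1 and Sptb are part of the late membrane means above, and how much of their RNA came from erythroid cells in TpB was not tested. Skeletal muscle genes in the TpB libraries summed to between 10.5 and 23428 TPM, and their part in the values was not tested. The libraries carry numbers from 2 ranges, and no member was called with the range as a block or within either range.

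Mandibular bone held little erythroid RNA, and 20 of 34 members passed the filter on low counts. No member was called in either genotype, as for 0% of all 16361 genes in both comparisons. In WT the 4 globins had log2 fold changes of −1.61 to −1.88 with unadjusted p of 0.000816 or less and adjusted p from 0.231 to 0.327. Hbb-bs had 438, 264 and 410 TPM in the GC_WT mice and 159, 122 and 74.6 TPM in the FL_WT mice, with no overlap. In Nrf2-KO the order was the other way, with 222, 224 and 147 TPM in GC_KO and 372 and 209 TPM in FL_KO, which overlapped. Slc4a1 stood at 0.99, 0.24 and 0.81 TPM in GC_WT and 0.03, 0.08 and 0.00 TPM in FL_WT (log2 fold change −4.14, adjusted p = 0.231), from 37 reads or fewer per mouse. DESeq2 called 5 members in WT. The 6 skeletal muscle genes were all below 0 in this comparison too, with a median of −1.96 and none called, and their part was not tested.

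Outside spleen and bone, globins were the members that differed most often. In Liv, 16 members were tested and 5 fell in WT, with 3.45% of all genes called. Hbb-bs had 153, 204 and 239 TPM in GC_WT and 47.1, 93.0 and 103 TPM in FL_WT, which did not overlap, and it fell by 1.32 on the log2 scale, with adjusted p from 0.00753 to 0.00979 for the 4 globins, which all fell. In Nrf2-KO, 1 of 16 members was called, against 3.34% of all genes, and the globins stood at −0.47 to −0.52 (adjusted p = 0.389 to 0.426). FL_KO was higher than FL_WT in Hbb-bs (0.95, adjusted p = 0.0482) and Hba-a2 (adjusted p = 0.0343), in a contrast with 3.65% of genes called, but neither was called with flight mouse 04 included, with the 2 groups alone in the fit (adjusted p = 0.121 and 0.0618), or without FL_KO mouse 01, 02 or 11. The difference of the flight effect between genotypes was called for no member in Liv, with an unadjusted p under 0.05 for 4.

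Tfrc fell in Liv in both genotypes. It had 9.62, 12.3 and 14.5 TPM in GC_WT and 3.89, 6.51 and 8.74 TPM in FL_WT, without overlap, and 6.84, 10.6 and 15.6 TPM in GC_KO against 4.54, 6.47, 8.30, 5.72 and 5.93 TPM in FL_KO, with overlap. The log2 fold changes were −0.94 (SE 0.20, adjusted p = 0.0117) and −1.09 (SE 0.21, adjusted p = 0.00425). On the ground, Slc25a37 was lower in GC_KO than in GC_WT (−0.34, adjusted p = 0.0407), 1 of 16 members against 2.64% of all genes, and this call was lost in 5 of 8 alternatives, namely the 3 with limma, no count filter and the 2 groups alone (adjusted p = 0.0728 to 0.323).

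In eWAT, 4 of 20 members were called in WT and 2 in Nrf2-KO, not far from the share of all genes, of which 13.4% and 7.71% were called. Epor rose in both, from 4.50, 5.40 and 6.10 TPM in GC_WT to 6.74, 10.9 and 13.0 TPM in FL_WT and from 3.18, 5.28 and 6.14 TPM in GC_KO to 6.33, 7.87, 7.96, 8.98 and 8.11 TPM in FL_KO. Flight and ground did not overlap in either genotype, and the log2 fold changes were 0.89 (SE 0.17, adjusted p = 0.00143) and 0.60 (SE 0.18, adjusted p = 0.044). In Nrf2-KO the call of Epor was lost without a count filter, with the 2 groups alone, or without FL_KO mouse 02, 09, 11 or 12 (adjusted p = 0.0647 to 0.0917). Slc25a37 rose in both (0.25 and 0.32), and Tfrc (−0.81) and Car1 (−0.66) fell in WT. Without a count filter these 3 were not called in WT (adjusted p = 0.0527 to 0.0834), and Slc25a37 was not called in Nrf2-KO without FL_KO mouse 12. On the ground Slc25a37 was lower in GC_KO (−0.35, adjusted p = 0.0144), 1 member against 2.74% of genes, a call lost with limma and with the 2 groups alone (adjusted p = 0.0826 to 0.275). The globins were at −0.23 to −0.53 in WT and −0.52 to −0.68 in Nrf2-KO, and none was called.

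In iBAT, 5 of 18 members were called in WT and 8 in Nrf2-KO, not far from the share of all genes, of which 19.2% and 33.5% were called. All 4 globins fell, by 1.20 to 1.67 in WT and by 0.95 to 1.22 in Nrf2-KO on the log2 scale. On log2(TPM + 1), where the median of all genes moves up by 0.31 and 0.43, the globins still fell, except that Hba-a1 in Nrf2-KO was not called when low genes were kept (adjusted p = 0.079). Aqp1 (0.51) and Car1 (2.57) rose in Nrf2-KO, Car1 from a median of 0.14 to 0.96 TPM, and the call of Aqp1 was lost without FL_KO mouse 01 or 02 (adjusted p = 0.12 and 0.159). Dmtn fell in Nrf2-KO (−0.48), but its median was 26.7 TPM in GC_KO and 26.2 TPM in FL_KO, and on log2(TPM + 1) it stood at −0.05 (adjusted p = 0.771).

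Sptb was called higher in iBAT in both genotypes (4.37, adjusted p = 0.046, and 5.18, adjusted p = 0.0223), and these calls rested on 3 libraries. FL_WT mice 06 and 08 had 5.16 and 1.38 TPM and FL_KO mouse 11 had 5.71 TPM, while no other mouse was above 0.13 TPM. The same 3 libraries held 1838, 914 and 2622 TPM of Acta1, skeletal muscle actin, against at most 20.9 TPM elsewhere. Without FL_KO mouse 11 the value in Nrf2-KO was 0.43 (adjusted p = 0.879), and without all 3 Sptb did not pass the filter on low counts while the 4 globins remained called in both genotypes. Tmod1 and Ank1 were high in the same 3 libraries. FL_WT mice 06 and 08 and FL_KO mouse 11 had 420, 220 and 507 reads of Tmod1, against at most 49 elsewhere. For Ank1 they had 457, 169 and 524 reads, against at most 21.

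In Thy, 4 of 18 members were called in WT and 7 in Nrf2-KO, about as often as all genes, of which 22.8% and 38.2% were called. Aqp1 rose (0.48 and 0.69), from 10.6, 11.6 and 13.0 TPM in GC_WT to 15.6, 19.0 and 22.9 TPM in FL_WT, without overlap. Sptb rose (0.50 and 0.49), and Hemgn fell (−0.95 and −0.96) at a level of 2 TPM or less. Bpgm fell by less (−0.27 and −0.35), and on log2(TPM + 1), where the median of all genes moves up by 0.18 and 0.16, it was no longer called (−0.04 and −0.09). In Nrf2-KO, Nfe2 rose (0.94) and Hbb-bt fell (−1.54), and Epb41 fell (−0.21) by counts but stood at 0.07 on log2(TPM + 1). Reads of Nfe2 and Hbb-bt were few, at 14 to 31 and 5 to 16 per FL_KO mouse. GC_KO mice had 7 to 17 and 8 to 29. The other globins were not called in Nrf2-KO (−0.40 to −0.55, adjusted p = 0.171 to 0.293).

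Kid had no flight call among 20 members in either genotype, with 0.119% and 0.159% of all genes called, and the globins were at −0.81 to −1.34 in WT and −0.47 to −0.88 in Nrf2-KO. Hbb-bs had 486, 433 and 381 TPM in the GC_WT mice and 250, 230 and 233 TPM in the FL_WT mice, without overlap. DESeq2 called 3 members in WT and 1 in Nrf2-KO. Slc4a1, which kidney intercalated cells also express, had 8.51 to 10.9 TPM in GC_WT and 7.41 to 9.23 TPM in FL_WT (log2 fold change −0.31, SE 0.12, adjusted p = 0.632). Tfrc was lower in FL_KO than in FL_WT (−0.75, adjusted p = 0.0316), with 10.8, 13.7 and 14.2 TPM in the FL_WT mice and 6.29, 6.76 and 10.4 TPM in the FL_KO mice, 1 member against 1.83% of genes. This call was lost in the 3 alternatives with limma, with the 2 groups alone, and without FL_KO mouse 01 or 02 or FL_WT mouse 08 or 10 (adjusted p = 0.0819 to 0.199).

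In Cbr, 3 of 19 members fell in WT, namely Hbb-bs (−1.25), Hba-a2 (−1.25) and Hbb-bt (−1.54), with 0.0244% of all genes called, which is 4 genes of 16382. In Nrf2-KO 1 fell, Hba-a2 (−1.14, adjusted p = 0.0422), with 0.00610% of all genes called, which is this gene alone. The call was lost with the 2 groups alone, with limma on log2(TPM + 0.1) or without a filter, and without FL_KO mouse 02, 09, 11 or 12 (adjusted p = 0.0517 to 0.277). Hba-a2 had 115, 167 and 197 TPM in GC_WT and 42.4, 69.9 and 85.7 TPM in FL_WT, without overlap. Skeleton genes that Cbr expresses more than Spl did not pass there, with log2 fold changes in WT of −0.05 (SE 0.10) for Sptb, −0.03 (SE 0.11) for Ank1, −0.05 (SE 0.08) for Add2 and −0.04 (SE 0.06) for Dmtn.

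Summed over the 4 globins, the share of all TPM was 1.66% ± 0.77 (SD, n = 6) in GC_WT and 0.353% ± 0.153 (n = 6) in FL_WT spleen, and 2.26% ± 1.22 (n = 6) in GC_KO and 0.327% ± 0.064 (n = 5) in FL_KO spleen. In TpB it was 6.36% ± 3.66 and 4.97% ± 1.69 in WT and 5.89% ± 1.77 and 5.10% ± 3.69 in Nrf2-KO. The other tissues held less, from 0.00542% in Thy, where the RNA was prepared in another way, to 0.236% in eWAT as means of GC_WT. In WT the means of the flight groups were lower than those of the ground groups in all 9 tissues, and in Nrf2-KO in all but MdB. Exsanguination is stated for the flight mice and not for the ground mice, so an effect of flight and a difference in blood left in the tissues cannot be told apart here.

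**Figure D5:**
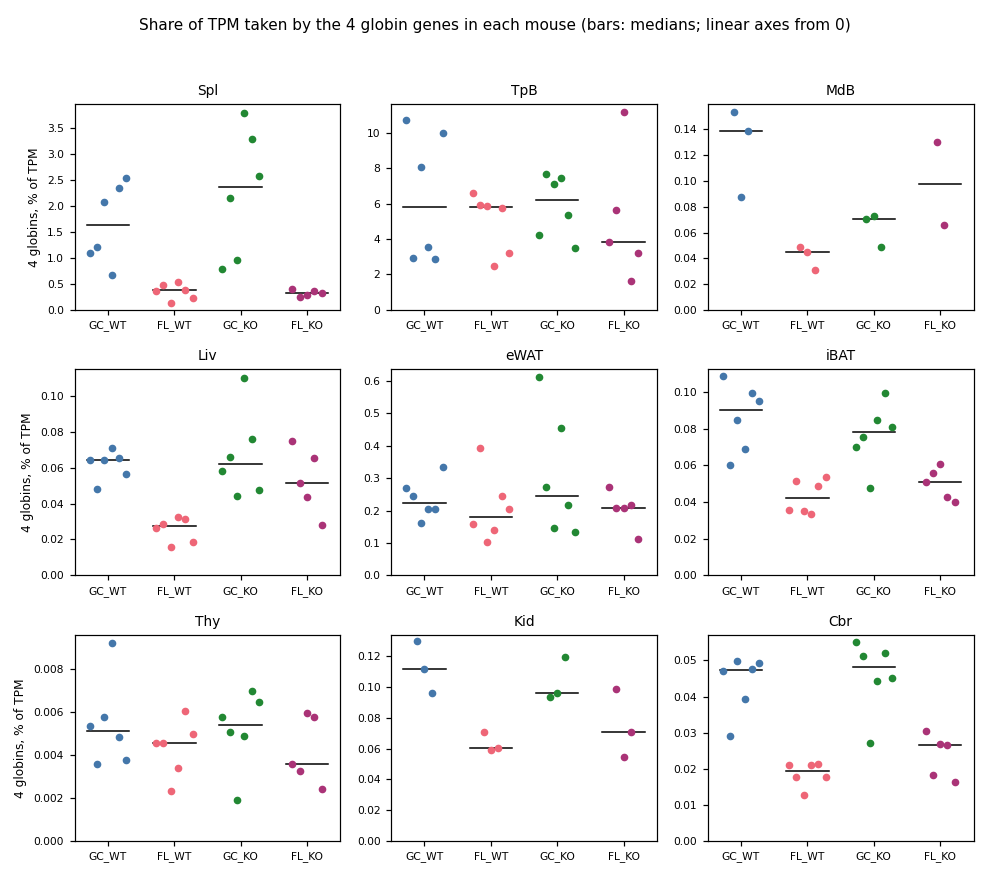
Share of all TPM taken by Hba-a1, Hba-a2, Hbb-bs and Hbb-bt in each mouse (points) with group medians (bars) for the 9 tissues, each on its own linear axis from 0. In Spl, FL_WT mice (mean 0.353%) lie below all GC_WT mice (mean 1.66%), whereas in TpB the groups overlap.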

How the data were processed

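Poly(A) RNA (ribosome-depleted total RNA in Thy) of 9 tissues was sequenced as 76-base single reads with a strand-specific kit, and the strand setting of the counting is not given in the sources used here. The authors aligned reads with STAR to mm10 and deposited RSEM expected counts, TPM and FPKM per gene, and the deposited FPKM columns were not used. Expected counts were rounded to whole numbers and tested per tissue with edgeR 4.0.16 (filterByExpr, TMM, quasi-likelihood F test; R 4.3.3), with all 4 groups in 1 fit and Benjamini-Hochberg adjustment over all genes tested at 0.05. The SE was taken as the size of the log2 fold change divided by the square root of F. Single members in Spl were tested by exact two-sided permutation of log2(TPM + 0.1) over all divisions of the mice (Python 3.11.15). The fits were tested on simulated data with known fold changes.

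Members and gene lists were chosen with earlier results of these data known. Named genes were all 34 members, and by-mouse values follow the 3 members of each role with the highest mean TPM in Spl, besides members named where they differed. Lists other than the members are described by counts and medians. Some genes of these lists are not reported here by name. Gene positions were read with GENCODE vM21, in which 98.4% of the identifiers had the same version, while the authors used vM20. Results were recomputed with DESeq2 1.42.0 and with limma 3.58.1, which took log2(TPM + 1) or log2(TPM + 0.1) of genes averaging at least 5 TPM in at least 1 group, or all genes, and with RLE factors, no count filter, library sizes without globins, 2-group fits, a replicate block, inclusion of flight mouse 04, and single mice left out. Fits within each range of TpB library numbers and without iBAT libraries with over 1000 TPM of muscle genes were chosen after seeing the data.

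A flight mouse and a ground mouse of equal number are separate animals. Their deviations from the group means were correlated over 0.1 in all pairs in Liv, MdB and Kid of Nrf2-KO mice. The values were 0.31 to 0.51 in Liv (5 pairs), 0.16 to 0.25 in MdB (2 pairs) and 0.12 to 0.28 in Kid (2 pairs). In TpB they ran from −0.52 to 0.80 in Nrf2-KO and from −0.57 to 0.61 in WT.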

Additional observations from a re-analysis of the deposited data

Results flagged for a closer look

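Among 76 groups of 4 to 10 mice checked for a single mouse standing far from the others, 3 were found, and chance alone gives about 1 in 20 groups. In Spl of GC_WT, mouse 08 had 10.27 TPM of Epor, with a gap to the next mouse of 0.638 of the group's range. The same mouse had 64.26 TPM of Car1 in Spl, with a gap of 0.704 of the range. In Spl of FL_KO, mouse 12 had 13.33 TPM of Car1 and stood below the others by 0.958 of the range. GC_WT mouse 08 had the highest value of its group for 26 of 34 members in Spl, and without it Car1 stood at 0.15 on the log2 scale in WT instead of −0.25.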

How the results depend on the processing

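Every other setting gave a count of called members within 1.5 times the one reported, apart from the following. With DESeq2, 4 members were called in Spl for GC_KO against GC_WT, 5 in MdB in WT (2 for FL_KO against FL_WT and 2 for the difference between genotypes), 8 in iBAT in WT, 7 in Thy in WT, 3 and 1 in Kid (WT and Nrf2-KO) and 2 in Cbr in Nrf2-KO. With limma in Spl in WT the counts were 7 on log2(TPM + 1), 9 on log2(TPM + 0.1) and 6 without the filter, and 9 in Nrf2-KO without it. The 3 limma settings gave 0 for GC_KO against GC_WT in Spl, Liv and eWAT and for FL_KO against FL_WT in Kid. Filtered limma gave 1 in Thy in Nrf2-KO on both scales, and 0 in Cbr in Nrf2-KO on log2(TPM + 0.1) and without the filter. Without the filter it gave 1 in Liv for FL_KO against FL_WT, 2 and 1 in eWAT, and 7 in Thy in WT.

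Without a count filter the counts were 1 in Spl for GC_KO against GC_WT, 5, 3 and 4 in MdB (WT, FL_KO against FL_WT and the difference), 0 and 1 in Liv (GC_KO against GC_WT, FL_KO against FL_WT), 1 and 1 in eWAT, and 4 and 2 in Kid. Fits of 2 groups gave 8 in Spl in Nrf2-KO, 0 for GC_KO against GC_WT in Spl, Liv and eWAT, 0 for FL_KO against FL_WT in Liv and Kid, 1 in eWAT and 5 in iBAT in Nrf2-KO, 3 in Kid in WT and 0 in Cbr in Nrf2-KO. With flight mouse 04 included, FL_KO against FL_WT gave 1 in MdB and 0 in Liv.

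With mice paired by number (replicate block), the counts were 15 and 25 in Spl, 0 and 0 in TpB, 0 in MdB (Nrf2-KO), 5 and 1 in Liv, 4 and 2 in eWAT, 5 and 7 in iBAT, 4 and 8 in Thy, 4 in Kid (Nrf2-KO) and 3 and 1 in Cbr (WT and Nrf2-KO). No block could be fitted in WT in MdB and Kid, where the groups share 1 number.

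Leaving out 1 mouse gave 8 to 16 calls in WT and 11 to 31 in Nrf2-KO in Spl, 0 to 9 for GC_KO against GC_WT, 0 to 4 for FL_KO against FL_WT in Liv, 0 to 2 in eWAT, 0 to 1 in Kid and 0 to 1 in Cbr in Nrf2-KO, and 0 to 2 for FL_KO against FL_WT in Kid. Directions turned for Epor in Spl in WT, at −0.000205 in the 2-group fit and from −0.0589 to 0.152 without 1 mouse, below 0 in 6 of these 12 fits, for Car1 in Spl in WT (−0.397 to 0.154 without 1 mouse, above 0 without GC_WT 08 alone) and for Epb41 in Thy in Nrf2-KO (0.0705 on log2(TPM + 1) with or without the filter and 0.0715 on log2(TPM + 0.1)). Without 1 mouse, 531 of 696 values of single members kept direction and side of the threshold, and 149 were no longer called. The late minus regulator difference in Spl moved with the pseudocount, to −0.42, −1.58, −0.42 and −1.51 with 0.1 (GC_WT, FL_WT, GC_KO, FL_KO) and −0.24, −0.90, −0.29 and −0.91 with 1, and to −0.05, −0.82, −0.21 and −0.88 without Tfrc and Epor. The causes were not tested. Depth limits members under about 1 TPM, such as Epb42 in flight.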
